A study of Mus musculus with 12 samples.

Results

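Eph receptors are receptor tyrosine kinases that bind ephrins, ligands held in the membrane of a neighbouring cell. A bound receptor signals forward into its own cell through GTPase regulators and adaptors, and the bound ephrin can signal in reverse into the cell that carries it. A-type ephrins are tethered by a lipid anchor, while B-type ephrins cross the membrane, and both classes guide axons and migrating neural crest cells, the lineage from which melanocytes arise. Expression of 10 genes of this family was followed in partially reprogrammed mouse melanoma cells: the receptors Epha2, Epha3, Epha4, Epha7, Ephb2, Ephb3 and Ephb4 and the ligands Efna5, Efnb1 and Efnb2. All probe sets annotated to 1 of these genes alone were taken, and a gene was read on whichever of its probe sets had the highest mean. This gave 9 genes with 25 probe sets, of 18193 genes and 34945 single-gene probe sets in all. Ephb2 is not analysed here.

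RNA of C790 cells, an Nras-mutant mouse melanoma line, had been measured on 12 Affymetrix arrays. All cells carried a doxycycline-inducible lentiviral vector for Oct4, Sox2 and Klf4 and a second vector for the doxycycline-responsive activator with mCherry. The 4 groups, with 3 arrays each at day 20, were +dox cells under trametinib, +dox cells under DMSO, −dox cells under trametinib and −dox cells under DMSO. Doxycycline was given to +dox cells to induce the factors, blasticidin selection followed, and −dox controls held both vectors without doxycycline, so the factors, doxycycline itself and any selection cannot be told apart. Trametinib, an inhibitor of the kinase MEK upstream of ERK, or its solvent DMSO was given for 72 h. One cell line was used throughout. The study describes its data in general as coming from independent experiments, but the labels and array methods do not say how the arrays of a group were cultured, so p-values measure the spread between these arrays, which may be in part technical.

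Values are log2 signals, so a difference of 1 is a doubling, and a background level of 4.87 marks the 95th percentile of means of 84 probe sets for smell and taste receptors, genes that these cells are not known to use. A gene was called changed at an adjusted p under 0.05. Trametinib lowered 13 of 14 measured genes of a list of ERK pathway outputs in +dox and in −dox cells. Of all genes, 12.5% and 10.8% fell. Dusp6, an ERK phosphatase, fell by 6.90 in trametinib-treated +dox cells (SE 0.20). The check of the induced factors was mixed. Under DMSO, Pou5f1 (Oct4) was higher in +dox than in −dox cells by a fitted 0.82 (SE 0.16, adjusted p = 0.016). Its −dox DMSO mean of 4.63 was under the background level, against 5.45 in +dox DMSO cells, so the sure part of this change is smaller. The difference was -1.53 for Sox2 (adjusted p = 0.091) and -0.15 for Klf4 (adjusted p = 0.80). Under trametinib none of the 3 factors was called for dox, with Pou5f1 at 5.88 in +dox and 5.50 in −dox cells. It is not known here whether these probe sets read the vector's copies. Of 8 melanocyte markers, Mitf, Pmel and Sox10 were above the background level in every group, and Tyr, Tyrp1, Dct, Mlana and Slc45a2 were under it in every group. The −dox DMSO array of replicate 1 lay farthest from its group, at a root mean square distance of 0.54 against 0.30 to 0.44 for the other arrays.

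The 250 bases upstream of the start are shown for 3 receptors whose responses to trametinib differed: Epha2, which fell in both cell states, Ephb4, which rose in both, and Epha3, which rose in +dox cells. They are RefSeq sequences of GRCm38.p6, on the plus strand at chr4:141300971-141301220 for Epha2, on the plus strand at chr5:137349859-137350108 for Ephb4 and on the minus strand at chr16:63864176-63864425 for Epha3, each written in the direction of transcription. Capitals mark the only motif match found.
Epha2: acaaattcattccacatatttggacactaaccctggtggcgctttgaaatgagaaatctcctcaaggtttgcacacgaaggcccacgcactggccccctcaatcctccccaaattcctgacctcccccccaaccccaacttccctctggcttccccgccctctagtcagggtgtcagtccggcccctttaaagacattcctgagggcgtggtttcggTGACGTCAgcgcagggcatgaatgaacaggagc
Ephb4: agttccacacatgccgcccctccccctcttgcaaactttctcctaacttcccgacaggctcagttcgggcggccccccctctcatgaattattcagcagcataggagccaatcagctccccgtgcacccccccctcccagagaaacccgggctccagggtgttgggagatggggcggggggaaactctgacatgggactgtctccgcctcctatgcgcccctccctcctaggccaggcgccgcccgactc
Epha3: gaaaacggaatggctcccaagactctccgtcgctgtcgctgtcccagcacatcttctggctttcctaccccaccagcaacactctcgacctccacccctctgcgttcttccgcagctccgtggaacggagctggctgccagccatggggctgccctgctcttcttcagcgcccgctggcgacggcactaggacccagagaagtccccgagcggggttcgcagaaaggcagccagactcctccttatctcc
Windows of 300 bases, 250 before and 50 after a start, were searched on both strands for the letters TGANTCA (AP-1), CCGGAAGT (ETS), CACGTG (E-box) and TGACGTCA (CRE, added after the windows had been read). All 10 genes matched the RefSeq table, with 11 windows. The single match was the CRE in the Epha2 window, starting at position -33 from the start, and TGACGTCA was held by 1.79% of 32851 windows of all genes. TGANTCA was held by 7.81%, CCGGAAGT by 3.89% and CACGTG by 7.15% of these windows. GC content was 54.7% in the Epha2 window and 59.7% to 73.3% in the other windows of these genes, against a median of 52.7% over all windows. These matches describe letters and show no binding.

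**Figure D1:**
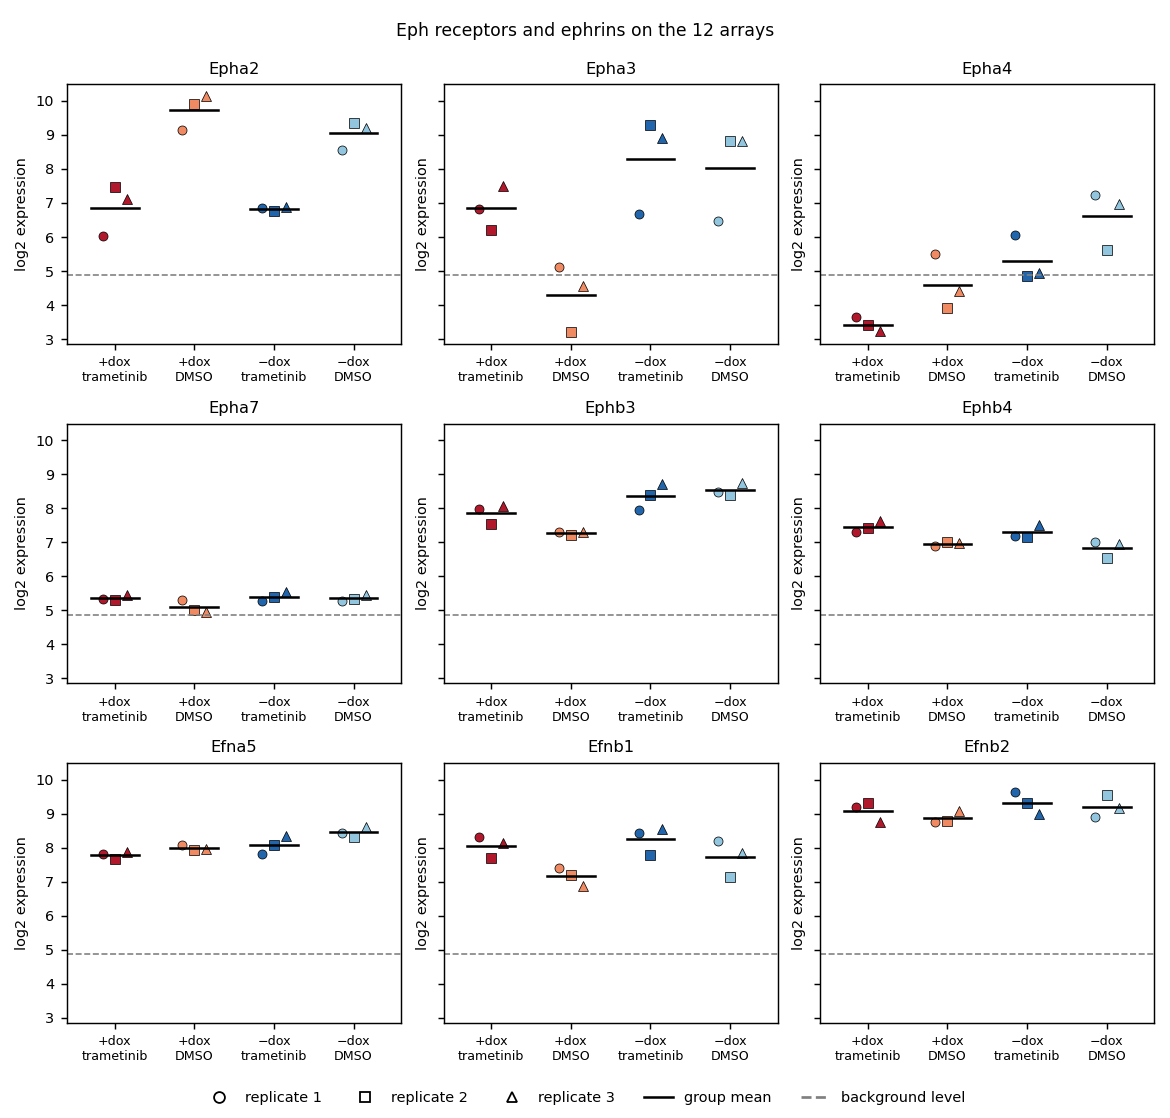
Log2 expression (y axis) of the 9 measured genes on each of the 12 arrays, in the 4 groups (x axis), with a marker for each replicate number, black bars for group means and a dashed line at the background level of 4.87. Epha2 was low on all 6 trametinib arrays, Epha3 was lowest on the +dox DMSO arrays, and Epha4 was under the dashed line on all +dox trametinib arrays.

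Across the groups, 7 of the 9 genes lay above the background level on every array, and only Epha3 and Epha4 had a group mean under it. Under DMSO, Epha3, Epha4 and Ephb3 were lower in +dox than in −dox cells. Trametinib raised Epha3, Ephb3, Ephb4 and Efnb1 and lowered Epha2 in +dox cells, and in −dox cells it raised Ephb4 and lowered Epha2. In bulk RNA, fewer cells that express a gene and less of its RNA per cell cannot be told apart.

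Epha2, a receptor with kinase-dependent and kinase-independent roles in melanoma cell migration, fell with trametinib in both cell states. The +dox trametinib arrays gave 6.02, 7.47 and 7.11 and the +dox DMSO arrays 9.14, 9.90 and 10.14. In −dox cells it had 6.86, 6.76 and 6.89 under trametinib, against 8.57, 9.36 and 9.20 under DMSO. Every trametinib array was thus below every DMSO array. The change under trametinib was -2.86 in +dox cells (SE 0.36, adjusted p = 1.9e-04) and -2.21 in −dox cells (SE 0.36, adjusted p = 0.0013). These responses differed by -0.65, with a 95% interval of -1.76 to 0.46 (adjusted p = 0.68).

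Epha2 is on chromosome 4 and read by 1 probe set (1421151_a_at). Doxycycline went with a difference of 0.68 under DMSO (interval -0.10 to 1.47, adjusted p = 0.33) and of 0.03 under trametinib (interval -0.76 to 0.82, adjusted p = 0.99). In the order of levels, +dox DMSO cells (9.73 ± 0.52, SD, n = 3) stood beside −dox DMSO cells (9.04 ± 0.42), and +dox trametinib cells (6.87 ± 0.76) beside −dox trametinib cells (6.84 ± 0.07). The step between the DMSO and the trametinib pair passed the test: +dox trametinib cells were below −dox DMSO cells (change -2.18, adjusted p = 0.0012), a comparison in which 24% of all genes differed. Both falls with trametinib kept their call under all 24 other settings tried. Of 12437 genes searched, the 2 with the pattern nearest to Epha2 over the 12 arrays were 2610318N02Rik and Fkbp11, with root mean square differences of gene-centred values of 0.35 and 0.36 against 1.35 for the spread of Epha2 itself.

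Epha3 is an A-type receptor that binds Efna5 and is known from embryonic tissue, glioma and melanoma. On its representative probe set (1455426_at) it had 6.82, 6.21 and 7.51 in +dox trametinib cells and 5.11, 3.21 and 4.55 in +dox DMSO cells. The −dox trametinib arrays gave 6.67, 9.30 and 8.90, and the −dox DMSO arrays 6.47, 8.83 and 8.83. The 3 +dox DMSO arrays were the lowest of all 12, and 2 of them were under the background level. Replicate 1 was the lowest array of both −dox groups.

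Because the +dox DMSO mean of 4.29 ± 0.98 was under the background level, Epha3 was lower in +dox than in −dox cells under DMSO (8.04 ± 1.36) by at least 3.17 (fitted change -3.75, SE 0.80, adjusted p = 0.020). With trametinib it was higher in +dox cells by at least 1.98 (fitted change 2.56, SE 0.80, adjusted p = 0.034), at 6.85 ± 0.65. In −dox cells the trametinib difference was 0.25 (interval -1.50 to 2.00, adjusted p = 0.87), with a mean of 8.29 ± 1.42 under the drug. The difference between the responses, which takes in the +dox DMSO mean under the background level, was not called (adjusted p = 0.46). From high to low, −dox trametinib, −dox DMSO and +dox trametinib cells did not differ from their neighbour beyond the spread (adjusted p = 0.87 and 0.34), while the step to +dox DMSO cells passed.

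The dox call for Epha3 was lost without +dox DMSO replicate 2 (adjusted p = 0.090) or 3 (0.062) or −dox DMSO replicate 2 (0.064) or 3 (0.075). The trametinib call in +dox cells was lost without +dox trametinib replicate 1 (adjusted p = 0.087) or 3 (0.12) or +dox DMSO replicate 2 (0.13) or 3 (0.071), and on the mean of the 4 probe sets (change 1.36, adjusted p = 0.14). Under trametinib the dox difference was -1.44 (adjusted p = 0.47), and it was -2.25 (adjusted p = 0.024) with replicate 1 of both −dox groups left out. Probe set 1425575_at was called lower for dox under DMSO (adjusted p = 0.036) and not called for trametinib in +dox cells (adjusted p = 0.13). All 3 of its +dox DMSO arrays were under the background level (mean 3.22), while its −dox DMSO arrays were all above it (mean 6.79). The remaining probe sets, 1425574_at and 1426057_a_at, were not called for dox under DMSO (adjusted p = 0.16 and 0.40). Replicate 1 was also the lowest −dox DMSO array on both, and all arrays were under the background level on 1426057_a_at. Medag and Masp1 had the patterns nearest to Epha3, with root mean square differences of 0.69 and 0.81 against a spread of 1.84.

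**Figure D2:**
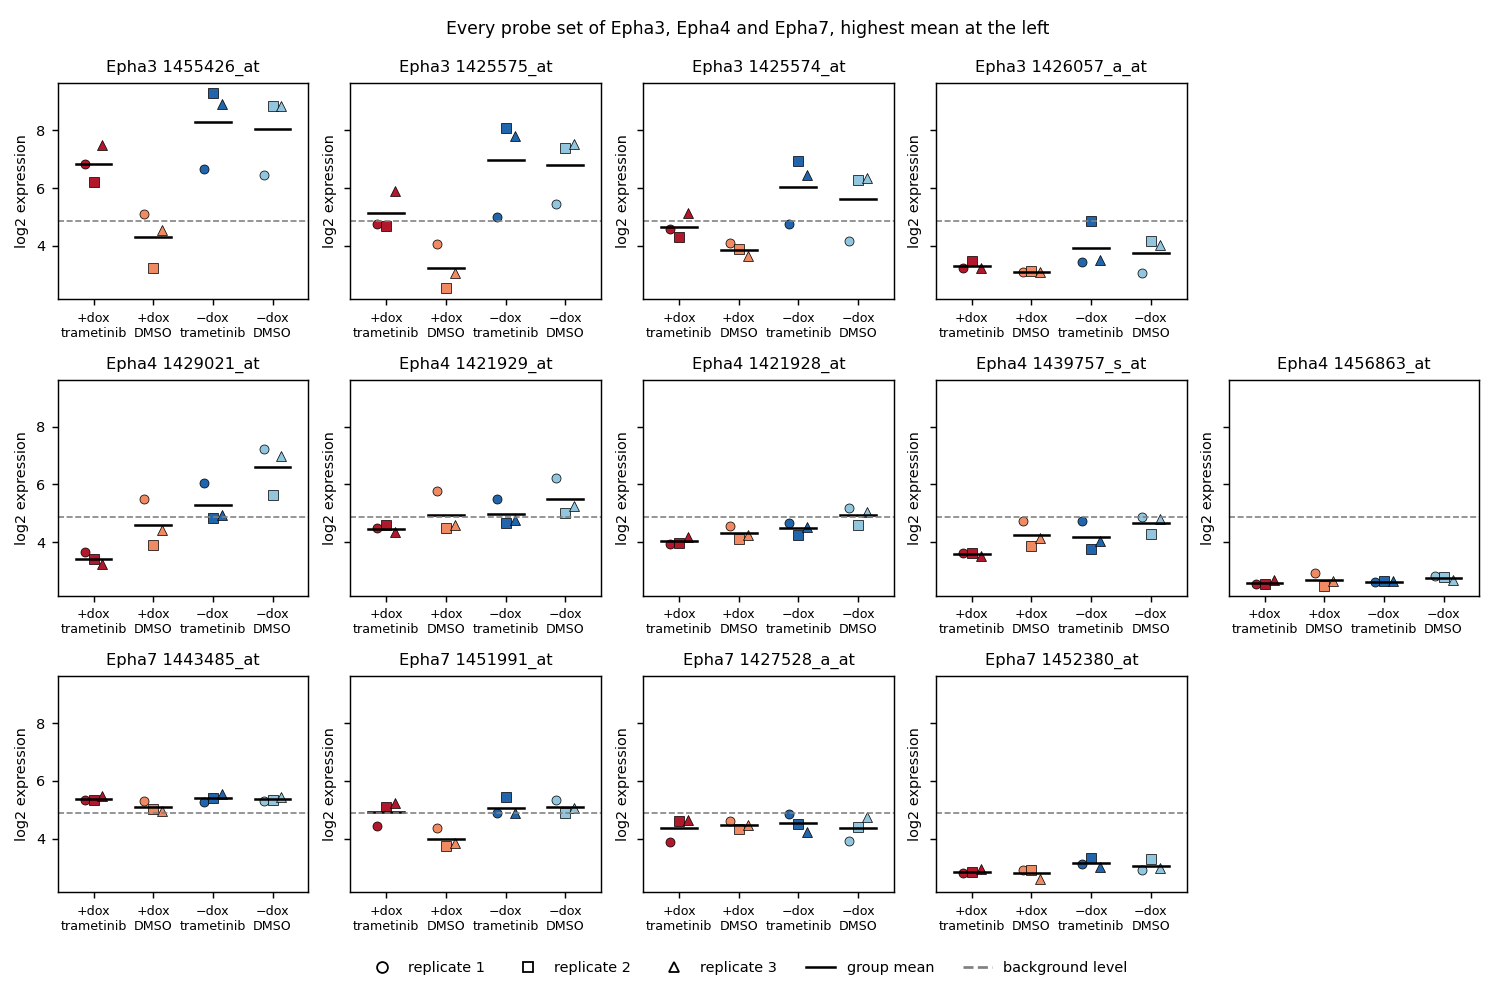
Log2 expression (y axis) on each of the 12 arrays in the 4 groups (x axis) for every probe set of Epha3, Epha4 and Epha7, one gene a row with the highest mean at the left, marked by replicate, with black bars for group means and a dashed line at the background level of 4.87. The 4 probe sets of Epha3 share an order of groups, and all 12 arrays are under the line on Epha3 1426057_a_at, on Epha4 1439757_s_at and 1456863_at and on Epha7 1427528_a_at and 1452380_at.

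Epha4, a receptor that binds A-type and B-type ephrins and repels growing axons, was lowest where both treatments were combined. It had 3.64, 3.41 and 3.23 in +dox trametinib cells, all under the background level, and 5.49, 3.91 and 4.41 in +dox DMSO cells. The −dox trametinib cells had 6.05, 4.84 and 4.95, and the −dox DMSO cells 7.24, 5.62 and 6.98. Replicate 1 was the highest array of every group. Under DMSO, Epha4 was lower in +dox (4.60 ± 0.81) than in −dox cells (6.61 ± 0.87) by at least 1.74 (fitted change -2.01, SE 0.48, adjusted p = 0.033).

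Under trametinib, the mean of Epha4 was 3.43 ± 0.21 in +dox cells and 5.28 ± 0.67 in −dox cells. This fitted dox difference of -1.85 missed the threshold (adjusted p = 0.066) and passed it with the replicate number as a block (0.0064), and the groups did not overlap. The +dox mean was under the background level, so the sure part of this difference is smaller. In +dox cells both means were under the background level, so no size is given for the trametinib difference (adjusted p = 0.10, or 0.011 with the block). In −dox cells it was -1.33 (adjusted p = 0.072, or 0.0075 with the block), and the trametinib array was the lower one in each of the 3 same-numbered pairs. Cells with both treatments were below −dox DMSO cells by at least 1.74 (fitted change -3.19, adjusted p = 7.5e-04). Between neighbours in the order of levels the steps missed the threshold without the block (adjusted p = 0.072, 0.35 and 0.10), while both trametinib steps passed with it.

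The dox call for Epha4 under DMSO was lost without +dox DMSO replicate 2 (adjusted p = 0.14) or 3 (0.12), −dox DMSO replicate 1 (0.086) or 3 (0.11) or both −dox replicates numbered 1 (0.051), with the compared arrays fitted alone (0.11) and on the mean of its 5 probe sets (change -0.74, adjusted p = 0.14). The dox difference under trametinib passed (0.034 to 0.046) without +dox DMSO replicate 1 or −dox DMSO replicate 1 or 2, and the trametinib difference in −dox cells passed (0.017 to 0.047) without +dox DMSO replicate 1, −dox trametinib replicate 1 or −dox DMSO replicate 2. None of the other 4 probe sets of Epha4 was called for dox under DMSO. Probe set 1421928_at gave a fitted -0.65 (adjusted p = 0.069). Its mean was 4.30 in +dox DMSO cells, under the background level, and 4.95 in −dox DMSO cells. Ampd3 and Gas6 had the nearest patterns, with root mean square differences of 0.48 and 0.59 against a spread of 1.28.

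Ephb3, a B-type receptor known from boundary formation in intestinal crypts, was lower in +dox than in −dox cells under DMSO. Its values were 7.97, 7.55 and 8.07 in +dox trametinib cells, and 7.31, 7.22 and 7.32 in +dox DMSO cells. They were 7.95, 8.39 and 8.72 in −dox trametinib cells and 8.47, 8.38 and 8.76 in −dox DMSO cells. The +dox DMSO arrays were below all 9 others. The dox difference under DMSO was -1.25 (SE 0.19, adjusted p = 0.0044), between means of 7.28 ± 0.06 in +dox and 8.54 ± 0.20 in −dox cells, and kept its call under all 24 other settings tried.

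Trametinib raised Ephb3 in +dox cells, to 7.86 ± 0.28, by 0.58 (SE 0.19, adjusted p = 0.046). In −dox cells, with 8.35 ± 0.39 under trametinib, the difference was -0.18 (interval -0.61 to 0.24, adjusted p = 0.56). The 2 responses differed by 0.76, with an interval of 0.16 to 1.36, and did not pass the adjustment over all genes (adjusted p = 0.29). The call in +dox cells was lost without +dox trametinib replicate 1 or 3, any +dox DMSO replicate, −dox trametinib replicate 2 or −dox DMSO replicate 2 (adjusted p = 0.053 to 0.16), and with median centring, trended robust eBayes or a fit over probe sets (0.052 to 0.078). Under trametinib the dox difference of Ephb3 was -0.49 (adjusted p = 0.25), and -0.69 (adjusted p = 0.041) without both −dox replicates numbered 1. Apbb2 and Atxn7l1 followed Ephb3 most closely, with root mean square differences of 0.17 and 0.20 against a spread of 0.53.

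Beside the lower Epha3, Epha4 and Ephb3 of +dox DMSO cells, 3 of a list of 6 fibroblast markers were lower. The mean of this list over genes was 6.22 to 6.30 on the +dox trametinib arrays, 5.27 to 5.47 on the +dox DMSO arrays, 6.74 to 6.90 on the −dox trametinib arrays and 6.37 to 6.58 on the −dox DMSO arrays. Under DMSO, Col1a1, Dcn and Pdgfra were lower in +dox cells (changes of -2.30, -2.23 and -2.07), where 3.28% of all genes were. The other 3, Col1a2, Lum and Thy1, were not called and were under the background level in every group. The leukocyte list gave 4.79 to 5.47 on the +dox DMSO arrays and 4.34 to 4.78 on all others. Of its 6 measured genes, 1 was called higher and 0 lower for dox under DMSO, where 2.87% and 3.28% of all genes were. Itgam had 4.19, 6.90 and 5.72 in +dox DMSO cells. Its means were 3.72 in +dox trametinib, 3.25 in −dox trametinib and 3.15 in −dox DMSO cells. The mean of Cd68 was 7.79 ± 1.14 in +dox DMSO and 6.36 ± 0.75 in −dox DMSO cells. Ptprc, which marks all leukocytes, was under the background level in every group. The keratinocyte list gave 4.50 to 4.82 on the +dox DMSO arrays and 5.13 to 5.40 on the −dox DMSO arrays. Of its 5 genes, 1 was called lower and 0 higher for dox under DMSO, where 3.28% and 2.87% of all genes were. This was Trp63, lower in +dox cells by at least 2.61 (adjusted p = 0.0022). Krt1 and Krt14 were under the background level in every group. The neuron list gave 5.60 to 5.79 on the +dox trametinib arrays and 4.91 to 5.32 on all others. Of its 6 genes, Syt1, Stmn2 and Snap25 rose with trametinib in +dox cells, where 13.8% of all genes rose. Map2 and Rbfox3 were not called there, with means of 5.89 and 5.73 under trametinib and 6.24 and 5.90 under DMSO. In −dox cells trametinib raised 2 of the 6 and lowered 1, where 11.6% of all genes rose and 10.8% fell. The mean of Map2 was 5.35 in −dox trametinib and 6.83 in −dox DMSO cells. Snap25 was under the background level in every group, and Tubb3 in every group except −dox trametinib (mean 5.47). The part of these lists in the results was not tested.

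Ephb4, the receptor of Efnb2 in the separation of arteries from veins, rose with trametinib in both cell states. It had 7.32, 7.41 and 7.64 in +dox trametinib cells and 6.90, 7.02 and 6.97 in +dox DMSO cells. The −dox cells had 7.20, 7.16 and 7.52 under trametinib and 7.01, 6.55 and 6.95 under DMSO. In each state all trametinib arrays were above all DMSO arrays. The rise was 0.49 in +dox cells (SE 0.15, adjusted p = 0.026) and 0.46 in −dox cells (SE 0.15, adjusted p = 0.043), and the responses differed by 0.04 (interval -0.41 to 0.49, adjusted p = 0.97).

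Doxycycline went with differences of Ephb4 of 0.13 under DMSO (interval -0.19 to 0.45) and 0.16 under trametinib (interval -0.16 to 0.48). From high to low, +dox trametinib cells were at 7.46 ± 0.17, −dox trametinib cells at 7.29 ± 0.20, +dox DMSO cells at 6.96 ± 0.06 and −dox DMSO cells at 6.84 ± 0.25, with no difference between neighbours past the threshold. The call in +dox cells was lost with median centring (adjusted p = 0.069) or without +dox trametinib replicate 2 or 3 or any +dox DMSO replicate (0.052 to 0.10). That in −dox cells was lost without any one array other than +dox trametinib replicate 3 and −dox DMSO replicate 1 (0.051 to 0.16) and in 3 other fits (0.053 to 0.12).

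Epha7, an A-type receptor that shapes cortical maps and neural tube closure, stayed near the background level. Its values were 5.35, 5.32 and 5.46 in +dox trametinib cells, 5.31, 5.01 and 4.95 in +dox DMSO cells, 5.28, 5.39 and 5.55 in −dox trametinib cells and 5.29, 5.33 and 5.45 in −dox DMSO cells. None of its differences was called, including that of 0.29 with trametinib in +dox cells (adjusted p = 0.096, or 0.024 without +dox DMSO replicate 1). A second probe set (1451991_at) was called lower for dox under DMSO (adjusted p = 0.032) and higher for trametinib in +dox cells (adjusted p = 0.018), so the 4 probe sets disagreed. The mean of 1451991_at was 3.98 in +dox DMSO cells, under the background level, 5.09 in −dox DMSO cells and 4.92 in +dox trametinib cells.

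Among the ligands, Efnb1, a B-type ephrin that signals in reverse and controls craniofacial development, rose with trametinib in +dox cells. It had 8.33, 7.71 and 8.15 in +dox trametinib cells and 7.42, 7.21 and 6.87 in +dox DMSO cells, which did not overlap. It had 8.45, 7.79 and 8.54 in −dox trametinib cells and 8.20, 7.14 and 7.85 in −dox DMSO cells, which did. The change was 0.90 in +dox cells (SE 0.29, adjusted p = 0.038) and 0.53 in −dox cells (interval -0.10 to 1.16, adjusted p = 0.22), and these differed by 0.37 (interval -0.52 to 1.26, adjusted p = 0.79). Both further probe sets were called in +dox cells, with 1.65 (1418285_at, adjusted p = 0.019) and 1.00 (1451591_a_at, adjusted p = 0.034).

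The Efnb1 call was lost with quantile normalization (adjusted p = 0.053) or median centring (0.068), and without +dox trametinib replicate 1 (0.14) or 3 (0.10), +dox DMSO replicate 2 (0.083) or 3 (0.14) or −dox DMSO replicate 3 (0.052). In the order of levels no neighbours differed, and +dox DMSO cells at the low end were below both trametinib groups, with a change of -1.09 against −dox trametinib cells (adjusted p = 0.013), a comparison in which 28.8% of all genes differed. Kif1c and Nipal3 were nearest to Efnb1, with root mean square differences of 0.22 and 0.22 against a spread of 0.53.

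Efna5, the A-type ephrin that sets up retinal maps in the midbrain, had 7.81, 7.68 and 7.88 in +dox trametinib cells and 8.07, 7.95 and 7.98 in +dox DMSO cells. It had 7.83, 8.08 and 8.35 in −dox trametinib cells and 8.44, 8.32 and 8.62 in −dox DMSO cells. Its +dox DMSO arrays lay below all −dox DMSO arrays, with a difference of -0.46 (SE 0.13) that missed the threshold (adjusted p = 0.069) and passed it with the replicate block (0.043) or without −dox trametinib replicate 1 or 3 (0.039 and 0.047). The trametinib difference in −dox cells was -0.37 (adjusted p = 0.068, or 0.023 without −dox trametinib replicate 3). Cells with both treatments were below −dox DMSO cells (change -0.67, adjusted p = 0.0038), and no neighbours in the order differed in the fit without the block. The other probe set of Efna5 (1421796_a_at) was under the background level on 11 of the 12 arrays and was not called.

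Efnb2, the B-type ephrin of arteries and a partner of Ephb4, showed no called difference. It had 9.21, 9.32 and 8.75 in +dox trametinib cells, 8.77, 8.78 and 9.08 in +dox DMSO cells, 9.63, 9.32 and 8.99 in −dox trametinib cells and 8.90, 9.55 and 9.17 in −dox DMSO cells. The groups overlapped in every comparison. The interval of its trametinib difference was -0.25 to 0.68 in +dox cells and -0.36 to 0.57 in −dox cells, and that of the dox difference was -0.80 to 0.14 under DMSO and -0.69 to 0.25 under trametinib.

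**Figure D3:**
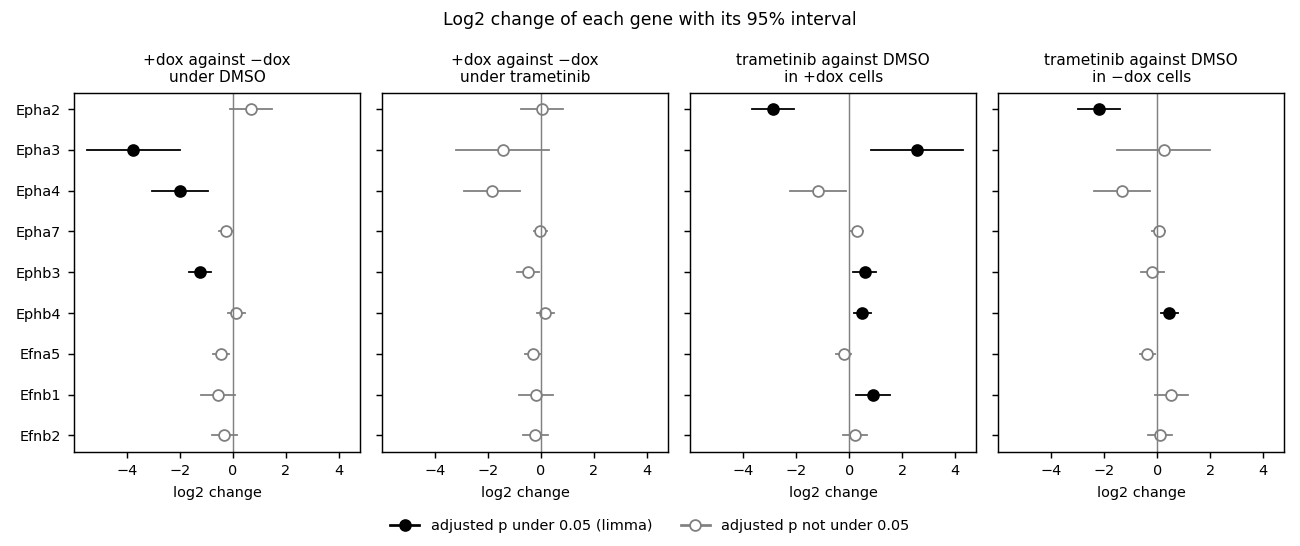
Log2 change (x axis) of the 9 genes (y axis) in 4 comparisons, each with its 95% interval from limma; filled black points have an adjusted p under 0.05. The filled points are Epha3, Epha4 and Ephb3 for dox under DMSO, none for dox under trametinib, 5 genes for trametinib in +dox cells, and Epha2 and Ephb4 for trametinib in −dox cells.

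Counted together, 3 of the 9 genes were lower in +dox than in −dox cells under DMSO, where 3.28% of all genes tested were, and 0 were higher, where 2.87% of all genes were. The median change of the 9 was -0.46, against 0.01 over all genes. Under trametinib the same dox comparison called 0 of the 9, where it called 3.37% of all genes, and 3 of the 9 (Epha4, Ephb3 and Efna5) had an unadjusted limma p under 0.05. The median was -0.22, against -0.02 over all genes. With each array centred on its median, 1148 genes were higher and 464 lower with dox under DMSO, against 522 and 596 as deposited, and 294 were higher and 425 lower under trametinib, against 355 and 259. The dox comparisons share no arrays with each other, and the difference between them is that between the trametinib responses.

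Trametinib raised 4 of the 9 genes in +dox cells, where 13.8% of all genes rose, and lowered 1, where 12.5% of all genes fell. In −dox cells it raised 1, where 11.6% of all genes rose, and lowered 1, where 10.8% fell. Medians were 0.29 in +dox and 0.05 in −dox cells, against 0.02 and 0.06 over all genes. Arrays of the groups did not overlap for 8 of the 9 genes in +dox cells, where 40.7% of all genes did not, and for 2 of the 9 in −dox cells, where 35.6% did not. All these shares take in genes under the background level, which 34.1% of all genes were by their mean. A fit of the 12453 genes with a group mean above it called 4817 for trametinib in +dox and 4095 in −dox cells. It called 1189 for dox under DMSO. The difference between the responses was called for 0 of the 9 and for 0.33% of all genes; 1 of the 9, Ephb3, had an unadjusted limma p under 0.05. In −dox cells median centring gave 4193 genes higher and 1544 lower, against 2113 and 1959 as deposited, and for the difference 49 and 168, against 47 and 13. The +dox DMSO arrays serve both in the dox comparison under DMSO and in the trametinib comparison of +dox cells, so the lower Epha3 and Ephb3 in the one and their rise in the other rest in part on the same arrays.

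Of 12 further Eph receptors and ephrins, 7 had a group mean above the background level. Under DMSO, 3 of the 12 were lower in +dox than in −dox cells and 0 higher, where 3.28% and 2.87% of all genes were. Of the 3, Ephb6 had both means under the background level. Under trametinib 2 of the 12 were lower and 0 higher, where 3.37% of all genes were called. Efna1, the ligand that classically binds Epha2, had 6.10, 6.46 and 6.60 in +dox trametinib cells, 6.64, 6.02 and 6.61 in +dox DMSO cells, 7.04, 7.61 and 7.15 in −dox trametinib cells and 7.32, 7.39 and 7.33 in −dox DMSO cells. All +dox arrays of Efna1 were below all −dox arrays, with a difference of -0.92 under DMSO (SE 0.20, adjusted p = 0.021) and -0.88 under trametinib (SE 0.20, adjusted p = 0.035). Its other probe set (1448510_at) gave -0.76 (adjusted p = 0.13) and -0.82 (adjusted p = 0.15) without a call.

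Efna2, another A-type ephrin, was lower in +dox cells under DMSO, at 6.60, 6.12 and 5.97 against 7.01, 7.17 and 7.12 in −dox cells (change -0.87, adjusted p = 0.016). Under trametinib it had 5.94, 5.82 and 6.16 in +dox cells and 6.50, 6.84 and 6.31 in −dox cells (change -0.58, adjusted p = 0.12), and it was lower with trametinib in −dox cells (change -0.55, adjusted p = 0.045). A second probe set of Efna2 (1417521_at), above the background level on all arrays, was not called, with -0.25 for dox under DMSO (adjusted p = 0.35) and 0.02 for trametinib in −dox cells (adjusted p = 0.94), so the probe sets disagreed. Efna4 differed in the same way without a call in these comparisons (change -0.67 for dox under DMSO, adjusted p = 0.087). Ephb6, a receptor without kinase activity, had all 6 +dox arrays between 3.37 and 3.76 and the −dox arrays between 3.93 and 5.76. It was called for dox under DMSO (adjusted p = 0.0475) with both means under the background level, and under trametinib it was lower by at least 0.09 (fitted change -1.45, adjusted p = 0.044).

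Trametinib in +dox cells called 0 of these 12 genes, with 1 at an unadjusted limma p under 0.05. In that comparison 13.8% of all genes rose and 12.5% fell. In −dox cells 1 of the 12 was higher and 1 lower, where 11.6% and 10.8% of all genes were. The higher gene was Epha5 (change 0.32, adjusted p = 0.019), which was under the background level on all 12 arrays, and the lower one was Efna2. Efna3, Efnb3 and Epha10 were above the background level in at least 1 group and were not called in any of the 4 comparisons. The difference between the responses called 0 of the 12 and 0.33% of all genes, and 0 of the 12 had an unadjusted limma p under 0.05.

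**Figure D4:**
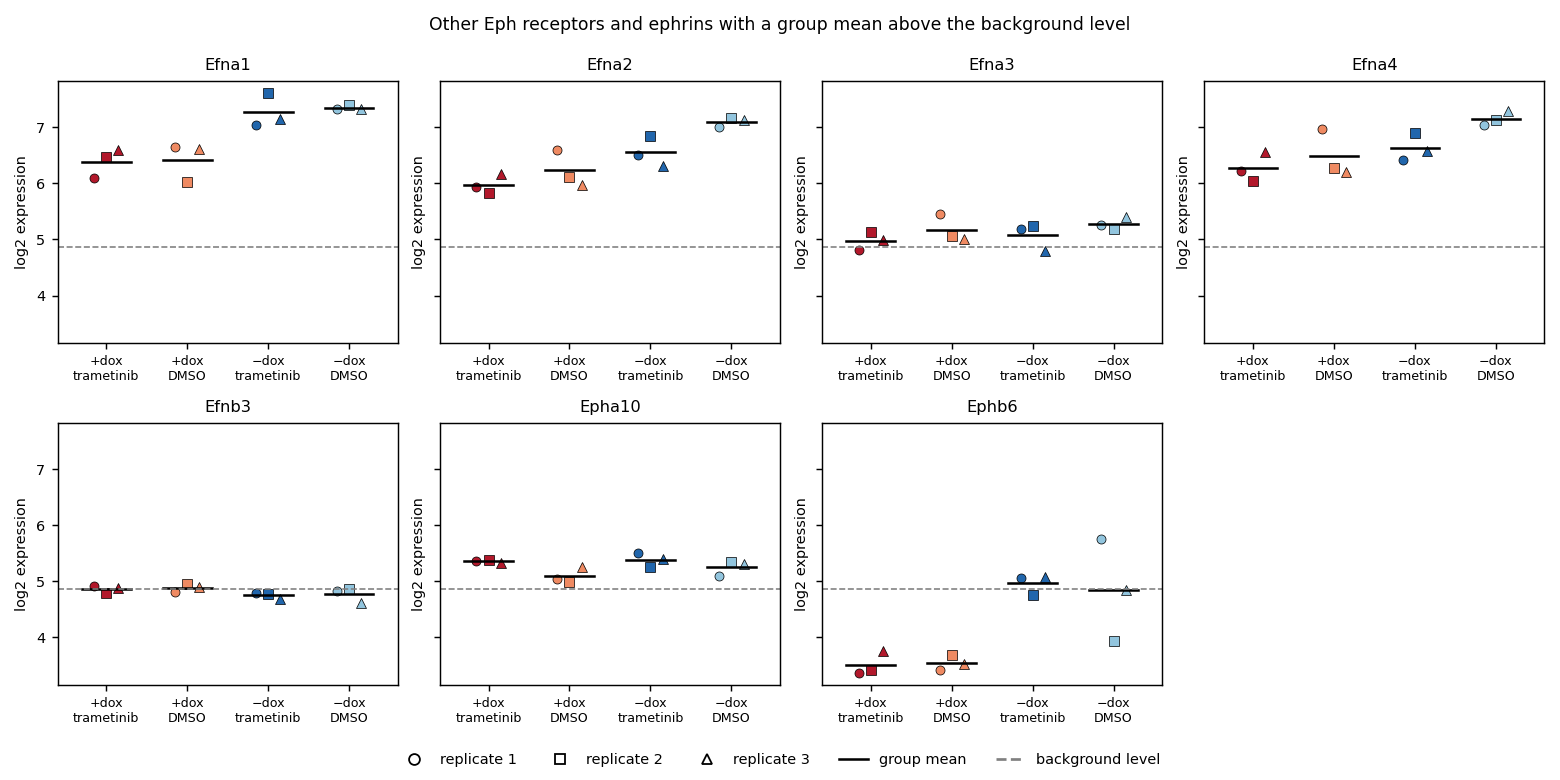
Log2 expression (y axis) of the 7 further Eph receptors and ephrins with a group mean above the background level, on each of the 12 arrays in the 4 groups (x axis), with a marker for each replicate, black bars for group means and a dashed line at 4.87. Every +dox array of Efna1 and Ephb6 lies below every −dox array, while Efna3, Efnb3 and Epha10 stay near the line.

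Partners that carry the signal forward from Eph receptors were measured with 25 genes. Under DMSO, 3 were higher and 1 lower in +dox than in −dox cells, where 2.87% and 3.28% of all genes were. The largest rises were those of Chn1, a GTPase activator for Rac needed for Epha4 signalling in mice (1.69, SE 0.44, adjusted p = 0.045), and Ngef (ephexin), an exchange factor bound to EphA receptors (1.19, SE 0.25, adjusted p = 0.021). Chn1 had 6.98, 7.97 and 7.93 in +dox DMSO cells and 4.71, 6.78 and 6.32 in −dox DMSO cells. Only its −dox DMSO replicate 1 was under the background level. The fall was that of Adam10, a protease that cleaves ephrins from the membrane (-0.61, SE 0.11, adjusted p = 0.0083). Its values were 11.44, 11.41 and 11.36 in +dox trametinib cells, 11.00, 10.60 and 10.61 in +dox DMSO cells, 11.70, 11.71 and 11.71 in −dox trametinib cells and 11.33, 11.33 and 11.39 in −dox DMSO cells. The +dox DMSO arrays were the 3 lowest, and trametinib raised Adam10 in +dox cells (0.67, adjusted p = 0.0010) and in −dox cells (0.36, adjusted p = 0.036).

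Trametinib raised 5 and lowered 3 of these 25 genes in +dox cells, where 13.8% of all genes rose and 12.5% fell. It raised 2 and lowered 2 in −dox cells, where 11.6% rose and 10.8% fell. In +dox cells the largest rises were in Sipa1l1, an activator of Rap GTPase hydrolysis (0.72, adjusted p = 0.040), and the adaptor Nck2 (0.69, adjusted p = 0.0017), and the largest falls in Ngef (-0.97, adjusted p = 0.015) and the kinase Abl2 (-0.83, adjusted p = 3.9e-04). In −dox cells the adaptor Crk and Adam10 rose (0.58 for Crk, adjusted p = 0.0086), while the phosphatase Acp1 (-0.43, adjusted p = 0.028) and the exchange factor Vav3 fell, with a fall of at least 1.20 for Vav3 (fitted change -1.42, adjusted p = 0.038). Dox under trametinib called 0 of the 25, with 4 at an unadjusted limma p under 0.05, and the difference between the responses called 0, with 3. Those comparisons called 3.37% and 0.33% of all genes.

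Of 12 partners of reverse signalling through ephrins, 11 were measured. For dox under DMSO or under trametinib 0 were called, with 2 at an unadjusted limma p under 0.05 in each. Under DMSO 2.87% of all genes were called higher and 3.28% lower, and under trametinib 3.37% were called. Trametinib raised Nck2 and Grb2, both adaptors, and lowered Ptpn13, a phosphatase that binds B-type ephrins, in +dox cells. In −dox cells it raised Grb2 and lowered Ptpn13 and Dvl2, a Wnt pathway scaffold. Of all genes, 13.8% rose and 12.5% fell in +dox cells, and 11.6% rose and 10.8% fell in −dox cells. Ptpn13 changed by -0.86 in +dox cells (SE 0.28, adjusted p = 0.040) and by -1.48 in −dox cells (SE 0.28, adjusted p = 0.0029), and Grb2 by 0.38 (adjusted p = 0.025) and 0.37 (adjusted p = 0.035) in the same states. The difference between the responses called 0 of the 11 and 0.33% of all genes, with 2 of the 11 at an unadjusted limma p under 0.05.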

How the data were processed

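RNA of 12 C790 cell samples was measured on Affymetrix mouse arrays, and the authors normalised the arrays with RMA in Chipster. The deposited values are log2 intensities per probe set and were used as they are. Of 45101 probe sets, 64 controls, 9160 without a gene and 932 with several genes were left out, and each of 18193 genes was read on its brightest probe set by mean, without filtering low values. The table holds no detection calls, so a background level (4.87) was set at the 95th percentile of means of 84 smell and taste receptor probe sets. Where 1 of 2 group means was under it, the stated minimum of the change is the higher mean minus this level. Precision is limited by the 3 arrays per group.

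All genes were fitted in limma 3.58.1 under R 4.3.3 with 1 mean for each group of the 12 arrays (functions lmFit and eBayes, checked on simulated data). Two-sided p-values of each comparison were adjusted over every gene (Benjamini-Hochberg). Values of further probe sets came from a fit over all 34945 single-gene probe sets. Deviations from group means correlated between arrays of equal replicate number for dox, at 0.17 to 0.34 under DMSO and 0.21 to 0.29 under trametinib, and for trametinib, at 0.16 to 0.45 in +dox cells but down to 0.02 in −dox cells. No label states this pairing, and the block is given in the report where it changed a call in the first 3 comparisons, and for Epha4 in −dox cells.

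Alternatives were the block, the compared arrays alone, the mean or each of the probe sets, genes above the background level, further quantile normalization, median centring, array weights, trended robust eBayes, an adjusted p under 0.01, a fold over 2 and leaving out each array. A further one, without both −dox arrays numbered 1, was chosen after seeing the data. The genes and lists were chosen with earlier results of these data known. Named genes are all family genes measured above the background level or called, up to 2 called rises and falls of each partner list and comparison, and for family genes whose group means span over 1 log2 unit the 2 genes nearest in pattern.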

Additional observations from a re-analysis of the deposited data

How the results depend on the processing

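The number of the 9 genes called, with 3 for dox under DMSO, 0 for dox under trametinib, 5 and 2 for trametinib in +dox and −dox cells and 0 for the difference between the responses, moved as follows. Array weights gave 6, 1 and 4 for dox under DMSO, dox under trametinib and trametinib in −dox cells. An adjusted p under 0.01 gave 1 for dox under DMSO and for trametinib in each state, and a fold over 2 gave 2 for trametinib in +dox and 1 in −dox cells. The replicate block gave 1 for dox under trametinib and 4 for trametinib in −dox cells, where it added Epha4 (adjusted p = 0.0075) and Efna5 (0.045); the compared arrays alone gave 1 in each of these. Median centring gave 2 for trametinib in +dox cells, and probe sets one by one and trended robust eBayes each gave 1 in −dox cells. With arrays left out the counts ran from 1 to 4 for dox under DMSO, 0 to 2 for dox under trametinib, 1 to 5 and 1 to 2 for trametinib in +dox and −dox cells, and stayed at 0 for the difference. The block changed no call of the 9 genes beyond those named. The background level was 4.61 at the 90th and 5.42 at the 99th percentile.

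Over all genes, the 1118 called for dox under DMSO became 550 with the compared arrays alone, 4086 with array weights, 366 at an adjusted p under 0.01, 477 with a fold over 2, and 465, 470 and 583 without +dox DMSO replicate 3 or 2 or −dox DMSO replicate 3. The 614 for dox under trametinib became 1427 with array weights, 248 at 0.01, 358 with a fold over 2 and 295 to 1482 with arrays left out. For trametinib in +dox cells, 4772 of 18193 genes became 3090 at 0.01 and 1755 with a fold over 2. In −dox cells 4072 genes became 2230 and 1385, and 7131 with array weights. With probe sets one by one, 7684 of 34945 probe sets were called in +dox cells and 6554 of 34945 in −dox cells. The 60 for the difference became 141 with the block, 217 with median centring, 1066 with array weights, 11 at 0.01 and 13 to 320 with arrays left out. Median centring moved the median change of all genes by over 0.1 for trametinib in −dox cells (0.19, against 0.06 as deposited) and for the difference (-0.21, against -0.02).

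Signs turned only for differences that were not called. For dox under trametinib, Epha2 became -0.030 with quantile normalization and -0.06 with median centring. For trametinib in −dox cells, Epha3 became -0.11 and Efnb2 -0.029 with array weights. For the difference between the responses, median centring gave -0.027 for Epha4, -0.15 for Ephb4, -0.02 for Efna5 and -0.073 for Efnb2, quantile normalization gave -0.082 for Ephb4, and the mean of probe sets gave -0.039 for Efnb2. Leaving out arrays moved Epha2 (-0.27 to 0.45) and Epha7 (-0.093 to 0.042) for dox under trametinib, Ephb4 for dox under DMSO (-0.017 to 0.21), Epha3 (-0.54 to 1.06), Epha7 (-0.022 to 0.11), Ephb3 (-0.37 to 0.018) and Efnb2 (-0.21 to 0.28) for trametinib in −dox cells, and Epha4 (-0.19 to 0.65), Ephb4 (-0.097 to 0.18) and Efnb2 (-0.062 to 0.42) for the difference. The cause of these moves was not tested. Signals near the background level limit Epha4, Epha7 and Ephb6.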

Other observations

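Other guidance systems for axons were read from a list of 20 receptors and ligands. Under DMSO, 1 was higher and 4 were lower in +dox than in −dox cells, where 2.87% and 3.28% of all genes were. The largest falls were those of Nrp1, a receptor for semaphorins and VEGF (-3.40, SE 0.53, adjusted p = 0.0047), and Sema3c, a secreted semaphorin (-2.73, SE 0.31, adjusted p = 7.6e-04), and the rise was that of Ntn4, a netrin of basement membranes (1.06, SE 0.14, adjusted p = 0.0021). Sema3c had 10.24, 10.15 and 10.24 in +dox trametinib cells and 6.85, 7.75 and 6.98 in +dox DMSO cells, against 11.19, 11.07 and 9.97 in −dox trametinib cells and 10.21, 9.77 and 9.79 in −dox DMSO cells, so its +dox DMSO arrays were below all others. Trametinib raised 3 and lowered 2 of the 20 in each state. Of all genes, 13.8% rose and 12.5% fell in +dox cells, and 11.6% rose and 10.8% fell in −dox cells. The counts of the 20 are thus near these shares. Ntn1, the founding netrin, had 12.06, 11.54 and 11.32 in +dox trametinib cells and 8.07, 7.61 and 7.23 in +dox DMSO cells, and 11.48, 9.92 and 10.94 in −dox trametinib cells and 9.49, 6.30 and 7.22 in −dox DMSO cells. It rose in +dox cells (95% interval of the change 2.54 to 5.47, adjusted p = 0.0011) and in −dox cells (by 3.11, adjusted p = 0.0064), while Nrp2 changed by -2.09 in +dox cells (adjusted p = 9.3e-04) and by -0.16 in −dox cells (adjusted p = 0.78). Under trametinib 3 of the 20 were lower in +dox than in −dox cells and 0 higher, where 3.37% of all genes were called. Nrp2 (-1.87, adjusted p = 0.011) and Plxnd1, a plexin (-1.78, adjusted p = 0.0025), were at the front. The difference between the responses called 0 of the 20 and 0.33% of all genes, with 4 of the 20 at an unadjusted limma p under 0.05.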
